A study of Mus musculus with 12 samples.

Results

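The effect of fumarate hydratase (FH) on the liver transcriptome was compared between a fasted and an obese mouse model, gene by gene. For each gene the log2 fold change of FH against vector in fasted C57BL/6 livers was subtracted from that in ob/ob livers on a high-fat diet. The result is called the difference here, and a positive value means that the FH effect was more positive in the ob/ob livers. The comparison used 12 of the 12 libraries of the series, in 4 groups of 3, and described 14447 autosomal genes among the 15228 genes that passed the filter on low counts. The fasted groups were C57BL/6 mice given AAV8-vector or AAV8-FH and fasted for 24 h before collection. The ob/ob groups were ob/ob mice given AAV8-vector or AAV8-FH and kept on a high-fat diet. All 4 groups received a liver-specific AAV8 by the tail vein at 6 to 8 weeks of age, with 1 month between injection and collection, so the controls also carry the virus. The promoter and the species of the delivered FH, and whether the ob/ob mice were fasted, were not given in the sources used here. Strain, genotype, diet and fasting differ between the models at the same time, and their parts in the difference cannot be told apart. The labels do not state that each library is a different mouse, and p-values therefore reflect only the variation among libraries, in part perhaps technical.

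FH is the enzyme of the tricarboxylic acid cycle that turns fumarate into malate. Mice of the ob/ob line lack functional leptin, overeat and store fat in the liver, where insulin drives lipid synthesis. During a fast the liver instead takes up fatty acids from adipose tissue, oxidises them under control of the nuclear receptor PPARα and makes ketone bodies. A difference of 2 effects asks whether the same gene delivery was followed by another response in these 2 metabolic states. It can be large because the effect reversed, because it was present in 1 model only, or because it had the same direction in both with unequal size.

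Library totals ran from 12231828 to 14884323 counts with the vector and from 19107050 to 25873379 counts with FH. Levels are given as CPM, a gene's count relative to the library total after scaling by the trimmed mean of M values (TMM). The labels name hepatocytes as the cell type, and all 7 hepatocyte markers tested were high in every library. Their summed level was 51145 to 72784 CPM with the vector and 163995 to 191300 CPM with FH. Markers of endothelium, macrophages and stellate cells were detected in every library too, so RNA of cells other than hepatocytes was present. Xist ran from 2242 to 4992 counts in ob/ob FH, where Y-linked transcripts had 0 counts, whereas Y-linked transcripts ran from 2304 to 5181 counts elsewhere and Xist reached at most 24. Sex markers therefore moved with 1 of the 4 groups, and sex and the difference cannot be told apart for any gene below. The library ob/ob vector replicate 2 stood apart from replicates 1 and 3 of its group in clock and sex-biased genes, and counts by list without it are given below. Scaling to library totals in place of TMM shifted the median FH effect by -0.67 (fasted) and -0.62 (ob/ob) but the median difference by 0.05 only, and upper quartile factors shifted it by 0.15. Rises, falls and reversals of single genes are stated on the TMM scale, and on library totals, where both FH effects lie lower, rises can miss the test and further falls can pass it.

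The FH effect differed between the models for 1232 autosomal genes, 8.53% of those tested (edgeR quasi-likelihood test, adjusted p under 0.05). The difference was positive for 696 of them (4.82% of those tested) and negative for 536 (3.71%). These 2 shares are the background for the counts by gene list below. At an unadjusted p under 0.05 the count was 3646. Of the 1232 genes 1181 were protein-coding, and for 814 the 2 effects differed at least 2-fold. The median difference over all autosomal genes was -0.11.

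For 200 of these genes, 1.38% of those tested, FH changed expression in both models and in opposite directions. Most of the 200, 151 genes (1.05%), fell with FH in the fasted livers and rose in the ob/ob livers, with a median of -0.90 and 0.83 on the log2 scale. The opposite pattern, a rise in the fasted and a fall in the ob/ob livers, was found for 49 genes (0.339%), with medians of 0.56 and -0.59. Over all autosomal genes, the FH effect passed upward for 28.0% and downward for 27.2% of the genes in the fasted livers, and for 26.4% and 27.3% in the ob/ob livers. Another 475 genes were called in the fasted livers only, 338 in the ob/ob livers only, 108 changed the same way in both and more in the fasted livers, and 111 changed the same way and more in the ob/ob livers. Across all autosomal genes the 2 effects had the same sign for 77.7%, and their Pearson correlation was 0.737, a description across genes, which are not independent replicates.

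**Figure D1:**
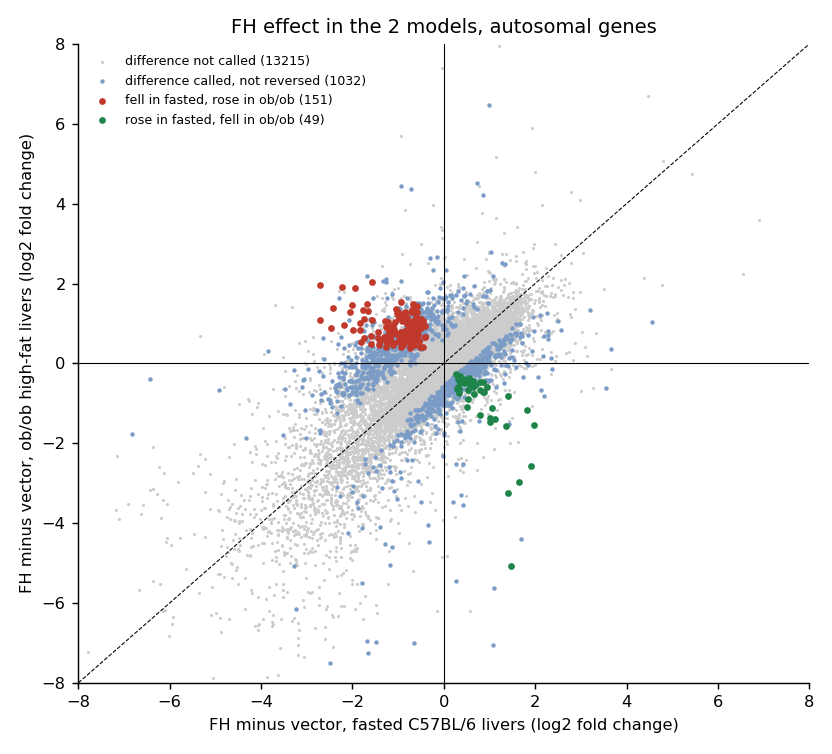
Log2 fold change of FH against vector in the fasted livers (x axis) and in the ob/ob livers (y axis) for 14447 autosomal genes, 1 point per gene, with 5 genes outside the axis range of 8. Colours mark the 151 genes that fell in fasted and rose in ob/ob livers, the 49 with the opposite pattern and the other called genes, and the dashed line is equality of the 2 effects.

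The counts of called and of reversed genes depended on the scaling. On library totals 1039 genes were called in the difference (7.19%), 693 positive (4.8%) and 346 negative (2.39%), and 91 reversed (0.63%). Of these, 68 rose (0.471%) and 23 fell (0.159%) in the ob/ob livers. On that scale the FH effect passed upward for 7.31% and downward for 55.5% of genes in the fasted livers, and for 6.91% and 52.8% in the ob/ob livers. The positive share of the calls was 56.5% with TMM, 66.7% on library totals and 79.0% with upper quartile factors, which called 1122 genes, 236 of them negative, and found 200 reversed. With RLE size factors 1119 genes were called and 193 reversed. Without ob/ob vector replicate 2 the fit called 1585 genes, 10.5% of the 15131 autosomal genes then tested, 840 positive (5.55%) and 745 negative (4.92%). It found 237 reversed genes (1.57%), 169 that rose (1.12%) and 68 that fell (0.449%) in the ob/ob livers, with FH effects passing upward for 29.4% and 24.9% and downward for 28.5% and 25.1% of genes in the fasted and ob/ob livers. Of the 696 genes with a positive difference 656 were called again with the same sign in that fit, and 441 of the 536 with a negative one. Of the 200 reversed genes 197 kept their call and sign in the difference and 157 were reversed again. In all 12 fits that each left out 1 library, 334 genes had a called positive and 134 a called negative difference. Of the 88 called genes among those named by the fixed rule, 56 kept the call in all 12 fits, and for those named below that lost it in more than 1 fit the number of such fits is given. The call was lost most often without ob/ob FH replicate 2 (27 genes) or fasted FH replicate 2 (26). Fasted vector replicates 3 (24) and 2 (23) came next. Without ob/ob vector replicate 2 the call was lost for 2 genes, Atg2b and Pdia4. That low count was in part fixed in advance, since many of the genes were named for being called again in that fit. The counts over all 696 and 536 genes above are not bound by that rule.

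Genes of the liver sinusoidal endothelium, the fenestrated lining of the sinusoids that filters blood toward hepatocytes, had positive differences throughout. All 14 of 14 tested members were called in the difference, all with a positive sign, and 9 reversed. The median difference of the list was 1.56, against -0.11 over all autosomal genes, with a median FH effect of -0.93 in the fasted and 0.55 in the ob/ob livers. On library totals all 14 were again called positive, but 4 reversed and the median effect in the ob/ob livers was -0.07, so the direction in the ob/ob livers depends on the scaling.

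Pecam1, an adhesion molecule of the junctions between endothelial cells, stood at 23, 26.8 and 23.7 CPM in fasted vector and 15.4, 15.4 and 14.2 CPM in fasted FH libraries. The ob/ob vector libraries held 12.8, 15.6 and 19.3 CPM and the ob/ob FH libraries 36.8, 39.1 and 41.2 CPM. Every fasted FH library lay below the fasted vector libraries, and every ob/ob FH library lay above the ob/ob vector libraries. The FH effect was -0.71 in the fasted and 1.29 in the ob/ob livers, and the difference of 2.00 (SE 0.20) had an edgeR adjusted p of 3.11e-04. Pecam1 reversed on library totals as well, with -1.38 and 0.68.

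Cdh5, the cadherin of the same junctions, reversed with a difference of 2.01 (SE 0.24), and Oit3, a secreted protein of these cells, with 1.69 (SE 0.19), both also on library totals. The vascular endothelial growth factor receptor Kdr fell by 0.93 in the fasted livers and rose by 0.41 in the ob/ob livers on the log2 scale, but on library totals its ob/ob effect was -0.21. Lyve1, a hyaluronan receptor, ran from 13.5 to 29.1 CPM with the vector and from 5.36 to 10 CPM with FH in the fasted livers. In the ob/ob livers Lyve1 ran from 5.52 to 13.4 CPM and from 12.3 to 25.9 CPM, so the ob/ob groups overlapped, and its difference was 2.66 (SE 0.52). Its rise in the ob/ob livers missed the test on library totals (0.48) and without ob/ob vector replicate 2 (0.82, edgeR adjusted p = 0.0536). The scavenger receptors Stab1 and Stab2, which clear waste molecules from blood, had differences of 1.77 and 1.67. Stab1 fell in both models, with effects of -2.29 (fasted) and -0.52 (ob/ob), the latter not called without ob/ob vector replicate 2 (-0.49, edgeR adjusted p = 0.0542).

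The summed level of the 14 endothelial markers was 514 to 632 CPM in fasted vector, 249 to 278 in fasted FH, 368 to 453 in ob/ob vector and 497 to 595 CPM in ob/ob FH libraries. None of the markers was at 0 in any group. On library totals the same sums were 587 to 749, 182 to 206, 504 to 597 and 409 to 530 CPM. The fasted groups were separate on both scales, while the ob/ob groups were separate on the TMM scale and overlapped on library totals. In bulk RNA, fewer cells of a type and less RNA per cell cannot be told apart.

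**Figure D2:**
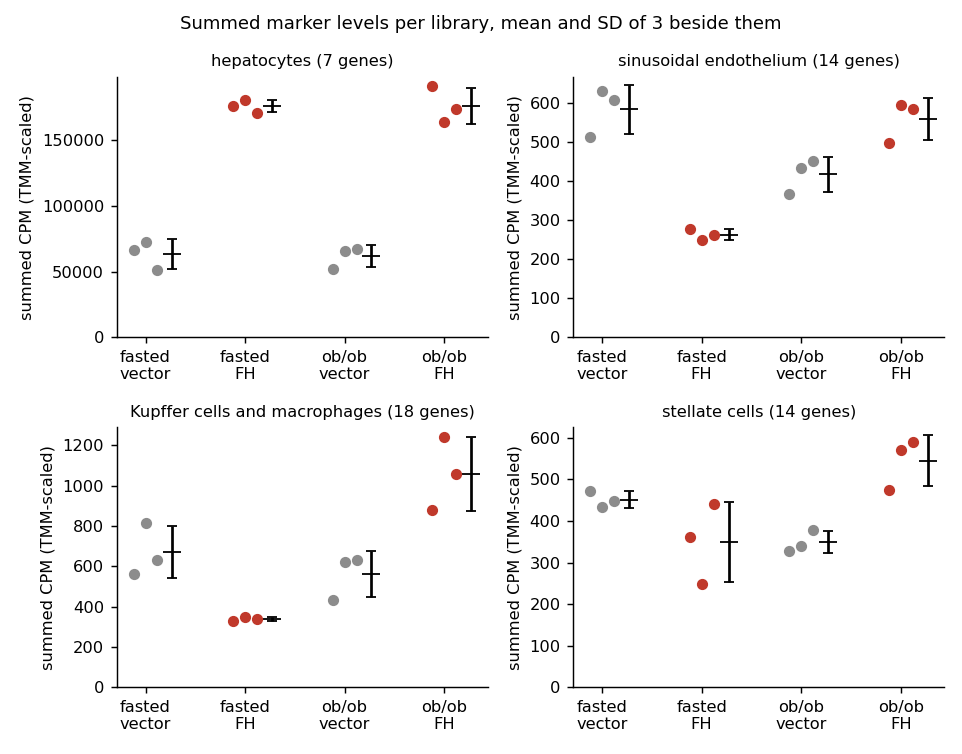
Summed CPM of marker genes (y axes, from 0) in each of the 12 libraries, with the mean and SD of 3 beside each group, for hepatocytes, sinusoidal endothelium, Kupffer cells and macrophages, and stellate cells. Endothelial and macrophage sums were lower with FH in the fasted livers and higher with FH in the ob/ob livers on this TMM scale (on library totals the ob/ob groups of both overlapped). Hepatocyte sums were higher with FH in both models. They ran from 51145 to 72784 CPM (vector) and 171215 to 180678 CPM (FH) in the fasted livers. In the ob/ob livers they ran from 51903 to 67462 CPM (vector) and 163995 to 191300 CPM (FH).

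Kupffer cells are the resident macrophages of the sinusoids, and their genes followed the same course. Of 17 macrophage genes tested 11 were called with a positive difference and none with a negative one, 8 of them reversed, and the median was 1.64. Their median FH effect was -0.68 in the fasted and 0.95 in the ob/ob livers, or -1.35 and 0.33 on library totals, where 5 reversed. Clec4f, a lectin that marks Kupffer cells in mice, stood at 104, 168 and 129 CPM in fasted vector and 55.7, 58.9 and 56.3 CPM in fasted FH libraries. It stood at 59.2, 92.2 and 114 CPM in ob/ob vector and 157, 192 and 163 CPM in ob/ob FH libraries. Neither pair of groups overlapped, and the difference was 2.18 (SE 0.30, edgeR adjusted p = 0.00187). On library totals its ob/ob effect was 0.33 and did not pass.

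The lysosomal glycoprotein gene Cd68 had a difference of 2.05 (SE 0.29), and C1qa and C1qb, which encode chains of complement C1q, had 1.56 and 1.75. Cd68 reversed on library totals too, while the ob/ob effects of C1qa (0.39) and C1qb (0.46) missed the test there. Adgre1, which encodes the macrophage antigen F4/80, went from -0.99 to 1.16 with a difference of 2.15 (SE 0.51), a call lost in 4 of the 12 fits without 1 library, and its ob/ob effect on library totals was 0.55 and not called. Csf1r, the receptor for the macrophage growth factor CSF1, was called in the ob/ob livers only (1.80) and had a difference of 2.16, and on library totals it also fell in the fasted livers (-1.03). The other 6 genes of the list were not called, among them Trem2 at 1.40 and Gpnmb at 1.07, which mark lipid-associated macrophages, and Timd4 at 1.30, a receptor of resident Kupffer cells. The summed level of the 18 macrophage markers, of which 17 passed the filter, was 564 to 816 CPM in fasted vector, 330 to 348 in fasted FH, 433 to 634 in ob/ob vector and 877 to 1242 CPM in ob/ob FH libraries. On library totals the sums were 643 to 916, 244 to 255, 593 to 835 and 722 to 1103 CPM, with overlap of the ob/ob groups, and none of the markers was at 0 in any group.

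Of 5 neutrophil genes tested 3 had called positive differences, and the median difference of the 5 was 2.43. S100a9 and S100a8, which encode the calcium-binding proteins of calprotectin, reversed with differences of 2.85 (SE 0.58) and 3.18 (SE 0.68), though on library totals neither passed the test in the ob/ob livers (0.50 and 0.88). Their levels were low, at most 2.46 CPM for S100a9 in fasted and 7.89 CPM in ob/ob libraries, and Ly6g, a defining marker of neutrophils, had 0 counts in 3 of the 4 groups. Csf3r, the receptor of granulocyte colony-stimulating factor, fell in both models, less so in the ob/ob livers, with a difference of 1.77 that was lost in 8 of the 12 fits without 1 library. Lymphocyte genes were called in 1 of 15 cases, Ptprc, which encodes the leukocyte antigen CD45, at 1.38 (SE 0.35), a call lost in 7 of those fits. Ptprc fell in both models, less so in the ob/ob livers, with effects of -2.33 (fasted) and -0.95 (ob/ob). The median difference of the lymphocyte list was also 1.38, and 13 of its 15 genes had a positive difference. None of 6 cholangiocyte genes and none of 3 adipocyte genes was called.

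Hepatic stellate cells store vitamin A and, when activated, make the collagens of a fibrous matrix. Of 14 stellate genes 8 were called with a positive difference and none with a negative one, none reversed, and the median was 1.20. Lrat, the enzyme that esterifies vitamin A for storage, stood at 26.2, 21.1 and 23.1 CPM in fasted vector and 7, 5.95 and 9.86 CPM in fasted FH libraries. Its ob/ob levels were 24.2, 19.9 and 27.1 CPM with the vector and 14.1, 27.4 and 24.7 CPM with FH, and these groups overlapped. Its difference of 1.51 (SE 0.33) thus came with a fall in the fasted livers. Pdgfrb, the receptor for platelet-derived growth factor, had the same difference of 1.51 (SE 0.34) with a rise in the ob/ob livers (1.18) and no call in the fasted livers. On library totals the calls of Pdgfrb changed places: its ob/ob effect was 0.56 (edgeR adjusted p = 0.0562) and its fasted effect -1.0 (edgeR adjusted p = 0.00415). Lrat then fell in the ob/ob livers too (-0.71). The list's median FH effect was -0.47 in the fasted and 0.47 in the ob/ob livers with TMM, and -1.14 and -0.15 on library totals, so its direction in the ob/ob livers depends on the scaling. Leaving out ob/ob FH replicate 2 lowered the called stellate genes from 8 to 4.

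Of 18 matrix and fibrosis genes 12 were called, all positive, with a median of 1.48 and effects of -0.26 in the fasted and 1.04 in the ob/ob livers. With TMM 2 of the 18 fell in the fasted and 14 rose in the ob/ob livers, and on library totals 12 fell and 8 rose, with median effects of -0.94 and 0.42. Col1a2, a chain of type I collagen, stood at 6.53, 7.78 and 5.52 CPM in fasted vector and 7.5, 6.22 and 8.52 CPM in fasted FH libraries. Levels of 13.2, 14.1 and 13.3 CPM in ob/ob vector and 41.0, 46.3 and 40.9 CPM in ob/ob FH libraries were found. The fasted groups overlapped, the ob/ob FH libraries all lay above their controls, and the difference was 1.49 (SE 0.21, edgeR adjusted p = 0.00201). On library totals Col1a2 rose in the ob/ob livers (1.03) and fell in the fasted ones (-0.50). Col5a2 and Col6a1, chains of types V and VI, reversed with 1.81 and 1.47, though on library totals neither passed in the ob/ob livers (0.02 and 0.27). Sparc, a matrix glycoprotein that binds collagen, had 1.31 (its ob/ob effect on library totals was 0.34 and not called), and Tgfb1, which encodes the main fibrogenic cytokine of liver, had 1.48. Fn1, fibronectin, which hepatocytes also secrete, was not called (0.19). The summed level of the 14 stellate markers was 433 to 473 CPM in fasted vector, 249 to 440 in fasted FH, 328 to 379 in ob/ob vector and 475 to 590 CPM in ob/ob FH libraries. On library totals the sums were 486 to 551, 182 to 317, 450 to 499 and 391 to 535 CPM, with separate fasted and overlapping ob/ob groups. The part of these sums in the matrix genes was not tested.

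The calls among antigen presentation genes were all of class II. Class II molecules show peptides from engulfed material and are made by macrophages, dendritic cells and B cells, whereas class I molecules are made by nearly all cells. Of 17 genes 6 were called, all positive, and all 6 belong to class II: H2-Aa (1.75), H2-Ab1 (1.68) and H2-Eb1 (1.63), which form the peptide-binding chains, the invariant chain Cd74 (1.74), and H2-DMa (2.47) and H2-DMb1 (1.55), which load the peptide. H2-DMa stood at 2.98, 3.71 and 1.86 CPM in fasted vector and 1.91, 1.34 and 1.29 CPM in fasted FH libraries, groups that overlapped. Ob/ob vector libraries had 2.73, 2.05 and 4.03 CPM and ob/ob FH libraries 7.61, 10.2 and 7.93 CPM, without overlap, and its difference had an SE of 0.43 (edgeR adjusted p = 0.00538). The class I genes H2-K1 (0.28) and H2-D1 (0.49) and B2m (0.03), their shared light chain, rose in both models and were not called in the difference, although the fasted rise of H2-D1 missed the test on library totals (0.34). Ciita, the coactivator that class II genes depend on, stood at 1.42 and was not called (edgeR adjusted p = 0.181). Macrophage marker sums rose in the ob/ob livers as well on the TMM scale, as given above. In the fasted livers these sums fell, as did H2-DMa (-0.93), but Cd74 (0.44), H2-Ab1 (-0.22) and H2-Aa (-0.36) were not called there. On library totals H2-Ab1 (-0.88) and H2-Aa (-1.02) fell in the fasted livers and Cd74 (-0.22) was not called. The part of macrophages was not tested. H2 genes are close relatives, and how shared reads were counted was not given in the sources used here.

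The 100 bases before the start of 2 of these class II genes are shown because both hold the Y box, a promoter element of class II genes, with the letters CTGATTGG in capitals. The sequences are from RefSeq (GRCm38.p6), on the strand of the gene, and H2-Aa lies at chr17:34287824-34287923 (minus strand) and H2-Eb1 at chr17:34305767-34305866 (plus strand).
H2-Aa: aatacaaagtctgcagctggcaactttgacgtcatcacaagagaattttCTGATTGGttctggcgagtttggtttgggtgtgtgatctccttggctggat
H2-Eb1: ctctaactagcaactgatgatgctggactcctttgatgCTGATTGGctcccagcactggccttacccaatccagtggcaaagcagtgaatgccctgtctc
Both strands were searched in the part of each 300-base promoter that lies before the start. CTGATTGG was present there in 2 of 4 called antigen presentation genes that had an entry and in 5 of 9 that were tested and not called. Among all 27025 genes it was present in 4.43%. The counts do not set called members apart from the others.

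Interferon-stimulated genes, which antiviral signalling through type I interferon induces, had a median difference of 0.79. Of 27 genes 6 were called, all positive, and none reversed. All of these but Igtp, a GTPase induced by interferon gamma (0.97), fell in the fasted livers and were called there only, while on library totals Ifit2 (-0.86) and Xaf1 (-0.78) fell in the ob/ob livers as well. Cmpk2, a mitochondrial nucleotide kinase, stood at 8.73, 12.6 and 10.3 CPM in fasted vector and 5.73, 3.14 and 2.20 CPM in fasted FH libraries, without overlap. In the ob/ob livers it ran from 6.57 to 7.80 CPM and from 7.28 to 9.57 CPM, with overlap, and the difference was 1.80 (SE 0.38, edgeR adjusted p = 0.0136). Oasl2, Ifit2 and Xaf1 had differences of 1.39, 1.41 and 1.15, the last 2 lost in 6 of the 12 fits without 1 library. Leaving out ob/ob vector replicate 2 left 4 called genes of the list, and leaving out fasted FH replicate 2 left 2.

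Of 28 cell cycle genes 10 had called positive differences and none a negative one, with a median of 1.44. Their median FH effect was -0.35 in the fasted and 1.35 in the ob/ob livers, and -1.01 and 0.72 on library totals. With TMM 7 of the 28 rose and 5 fell in the fasted livers, and 22 rose and 2 fell in the ob/ob livers. On library totals 1 rose and 11 fell in the fasted livers, and 14 rose and 2 fell in the ob/ob livers. Birc5, a subunit of the complex that guides chromosome segregation, stood at 2.56, 3.41 and 4.32 CPM in fasted vector and 0.919, 0.736 and 0.911 CPM in fasted FH libraries. The ob/ob vector libraries held 1.92, 1.10 and 1.68 CPM and the ob/ob FH libraries 2.17, 2.50 and 3.66 CPM. Both pairs of groups were separate, in opposite directions, and the difference was 2.83 (SE 0.45, edgeR adjusted p = 0.00344). On library totals Birc5 fell in the fasted livers (-2.67) and was not called in the ob/ob livers (0.22, edgeR adjusted p = 0.583), nor was its rise there without ob/ob vector replicate 2 (0.65, edgeR adjusted p = 0.107). Ccnb1 and Ccna2, cyclins of mitosis and of S phase, reversed with 4.13 (SE 0.74) and 3.48 (SE 0.75), with levels of at most 0.864 CPM in the fasted libraries, and on library totals only Ccnb1 passed in the ob/ob livers (1.29, against 0.85 for Ccna2).

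Cdk1, the kinase that cyclin B activates, was called in the ob/ob livers only (1.49), with a difference of 1.97 (SE 0.43), and on library totals it fell in the fasted livers as well (-1.14). Rrm2, the regulated subunit of ribonucleotide reductase, and Mcm6, a part of the replicative helicase, rose in both models and more in the ob/ob livers, by 1.30 and 1.16, but on library totals neither passed in the fasted livers (-0.02 and -0.09). Cdkn1a, the cell cycle inhibitor p21, had a positive difference as well (2.73), so the called members do not all promote division. Mki67, which encodes the proliferation antigen Ki-67, stood at 1.77 (edgeR adjusted p = 0.0584) and was not called. Pcna (-0.10), Tyms (-0.09) and Rrm1 (-0.11), all of DNA synthesis, were not called either. Leaving out single libraries gave between 5 (without fasted FH replicate 1) and 12 called genes of the list. Which cells these transcripts came from was not tested.

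The 100 bases before the start of Cdk1, Cdc20 and Ube2c are shown because these called genes each hold 2 elements known from promoters of mitotic genes, the cell cycle homology region with its core TTTGAA and the CCAAT box. Capitals mark TTTGAA and CCAAT, written TTCAAA and ATTGG where the match is on the other strand. The sequences are from RefSeq (GRCm38.p6) on the strand of the gene, at chr10:69352913-69353012 (Cdk1, minus strand), chr4:118437344-118437443 (Cdc20, minus strand) and chr2:164769829-164769928 (Ube2c, plus strand).
Cdk1: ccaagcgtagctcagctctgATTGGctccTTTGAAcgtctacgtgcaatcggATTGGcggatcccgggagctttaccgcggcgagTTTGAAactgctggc
Cdc20: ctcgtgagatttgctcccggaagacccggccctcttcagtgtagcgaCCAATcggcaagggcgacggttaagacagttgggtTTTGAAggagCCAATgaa
Ube2c: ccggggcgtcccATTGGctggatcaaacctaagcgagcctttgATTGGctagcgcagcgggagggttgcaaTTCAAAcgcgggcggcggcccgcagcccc
Both strands were searched in the part of each 300-base promoter that lies before the start. Both elements together were present there in 3 of 8 called cell cycle genes with an entry and in 4 of 15 that were tested and not called. Among all 27025 genes the pair was present in 6.45%. TTTGAA was present in 18.3% and CCAAT in 37.5% of all genes. Members without a call held the pair of elements as well.

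**Figure D3:**
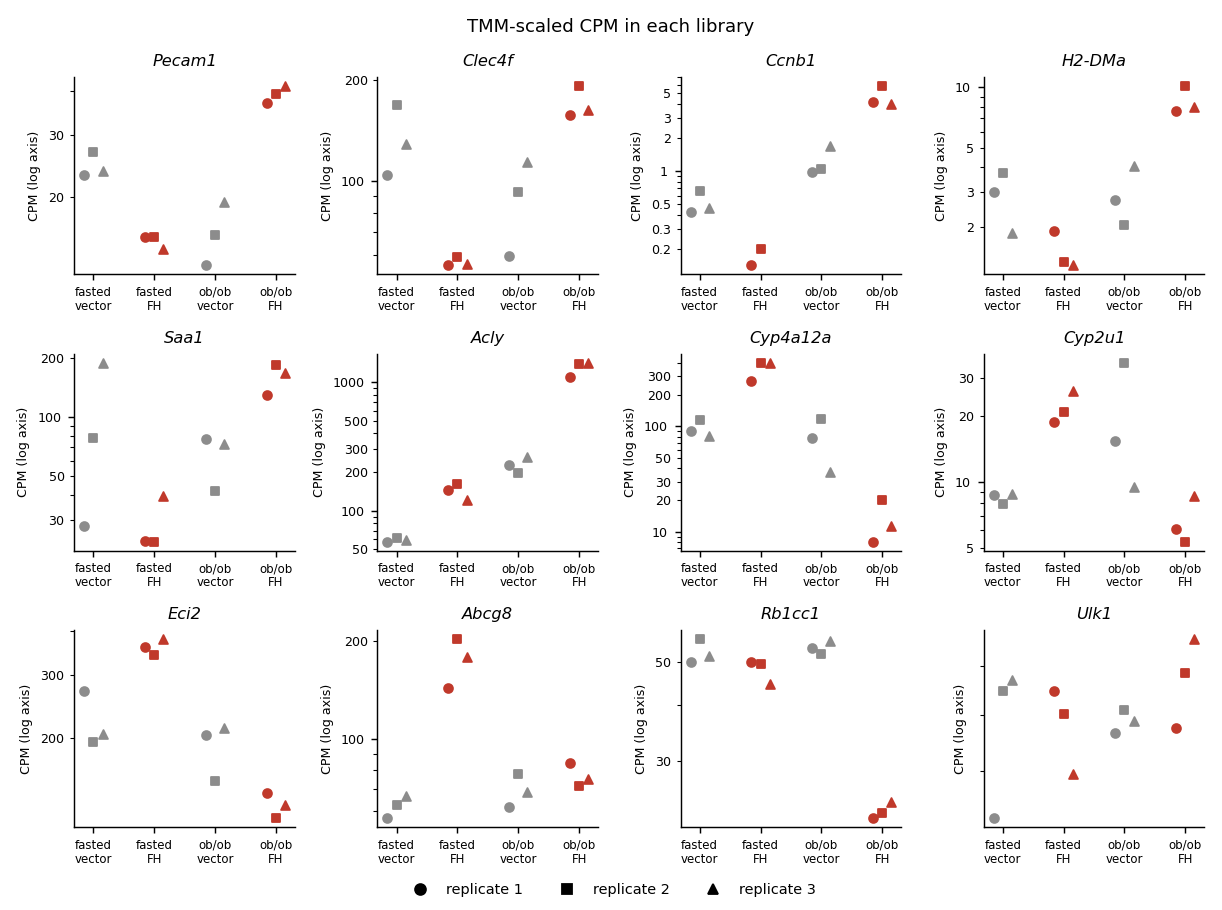
TMM-scaled CPM (log axes) of 12 genes in each of the 12 libraries, with grey for vector, red for FH and the marker shape for the replicate. Ccnb1 had 0 counts in fasted FH replicate 3, which is not drawn, and Pecam1 and Clec4f show fasted FH libraries below and ob/ob FH libraries above their controls, the reverse of Cyp4a12a, Cyp2u1 and Eci2.

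Acute phase proteins are secreted by hepatocytes in inflammation. Of 23 genes 3 were called, all positive, beside 4.82% of all autosomal genes. They were Saa1, Saa2 and Orm3, an orosomucoid (2.95, lost in 8 of the 12 fits without 1 library). The median difference of the list was 0.38. Saa1, a serum amyloid A, stood at 28, 78.4 and 189 CPM in fasted vector and 23.4, 23.2 and 39.8 CPM in fasted FH libraries, and the groups overlapped. It stood at 77.0, 41.9 and 72.5 CPM in ob/ob vector and 129, 184 and 168 CPM in ob/ob FH libraries. The spread of the fasted vector libraries was wide, and the difference was 3.10 (SE 0.69, edgeR adjusted p = 0.0159). Saa2 had a difference of 3.82 (SE 1.08), which was lost in 9 of the 12 fits without 1 library. Saa1 and Saa2 are near-identical copies, so their separate counts are uncertain, and on library totals neither rise in the ob/ob livers passed the test. Without ob/ob vector replicate 2 the rise of Saa1 missed it as well (1.12, edgeR adjusted p = 0.0686).

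Among stress genes, Hmox1, the heme oxygenase, was the only one of 25 targets of the antioxidant factor NRF2 that was called with all 12 libraries. Leaving out ob/ob vector replicate 2 gave that list 2 positive and 4 negative calls, and its median moved from -0.27 to -0.48. Hmox1 stood at 19.4, 20.6 and 21.9 CPM in fasted vector and 20.4, 14 and 16.7 CPM in fasted FH libraries. Its ob/ob levels were 13.3, 13.6 and 22.6 CPM with the vector and 32.9, 42.0 and 42.0 CPM with FH. Only the ob/ob groups were separate, and the difference was 1.52 (SE 0.28, edgeR adjusted p = 0.00733), with a fall in the fasted livers on library totals (-0.95). Hmox1 is also a gene of macrophages, whose marker sums rose with it in the ob/ob livers on the TMM scale. In the fasted livers these sums fell, whereas Hmox1 was not called there with TMM (-0.28). The part of macrophages was not tested. Chaperones of the endoplasmic reticulum had 3 called genes of 20, all positive, beside 4.82% of all autosomal genes. They were Manf (0.88), Sdf2l1 (1.57) and Pdia4 (0.64, lost in 10 of the 12 fits without 1 library). Manf, a secreted stress-response factor, rose in the ob/ob livers (0.87) and stood at -0.01 in the fasted livers. On library totals the ob/ob rise of Manf missed the test (0.25, edgeR adjusted p = 0.166) and it fell in the fasted livers (-0.68, edgeR adjusted p = 0.00136). Of 18 genes of the integrated stress response only Ddit4, an inhibitor of mTORC1, was called (2.87, SE 0.74), with fasted vector libraries from 11.6 to 95.7 CPM, and that call was lost in 8 of the 12 fits without 1 library.

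The FH effect on the counts of Fh1, the mouse gene of FH, differed between the models. Fh1 stood at 311, 408 and 238 CPM in fasted vector and 926, 721 and 792 CPM in fasted FH libraries, and at 142, 106 and 118 CPM and 620, 616 and 802 CPM in the ob/ob libraries. It rose in both models with no overlap, by 1.35 and 2.48 on the log2 scale, and the difference was 1.13 (SE 0.28, edgeR adjusted p = 0.0267), lost in 5 of the 12 fits without 1 library. Fh1 levels of the FH libraries overlapped between the models, while the ob/ob vector libraries all lay below the fasted vector libraries. Viral and mouse FH reads cannot be told apart in these counts, so a difference in delivery was not shown. The other 20 of 21 tested genes of the tricarboxylic acid cycle were not called, and the list's median was -0.22.

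Lipogenesis turns citrate into fatty acids. Of 30 genes 2 were called, both positive, beside 4.82% of all autosomal genes. They were Acly, the enzyme that splits citrate into acetyl-CoA, and Scd2, a stearoyl-CoA desaturase, and the median difference of the list was 0.26. Acly stood at 57.2, 61.4 and 59.0 CPM in fasted vector and 146, 163 and 121 CPM in fasted FH libraries. Levels of 225, 198 and 262 CPM in ob/ob vector and 1094, 1388 and 1424 CPM in ob/ob FH libraries were found. Groups were separate in both models, and the difference was 1.24 (SE 0.22, edgeR adjusted p = 0.00641), a call kept in all 12 fits without 1 library. Scd2 was called in the ob/ob livers only, from 5.51, 6.73 and 7.49 CPM to 25.2, 75.5 and 24.3 CPM, with a difference of 2.81 (SE 0.55).

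Fasn, fatty acid synthase, stood at 1.09 with a 95% interval from 0.27 to 1.91 (edgeR adjusted p = 0.0756), and Scd1 at 1.52 with an interval from 0.48 to 2.56 (edgeR adjusted p = 0.0533). Neither was called, although Scd1 passed without ob/ob vector replicate 2 (1.25, edgeR adjusted p = 0.0497). Their regulators Srebf1 (0.15, interval -0.57 to 0.88) and Mlxipl (0.27, interval -0.56 to 1.10), the genes of SREBP-1 and ChREBP, were not called. Without ob/ob vector replicate 2 the median of the list was -0.06, so its sign depends on that library. Slc2a2, the glucose transporter GLUT2, rose in both models and less in the ob/ob livers, by a difference of -0.99 that was lost in 10 of the 12 fits without 1 library.

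**Figure D4:**
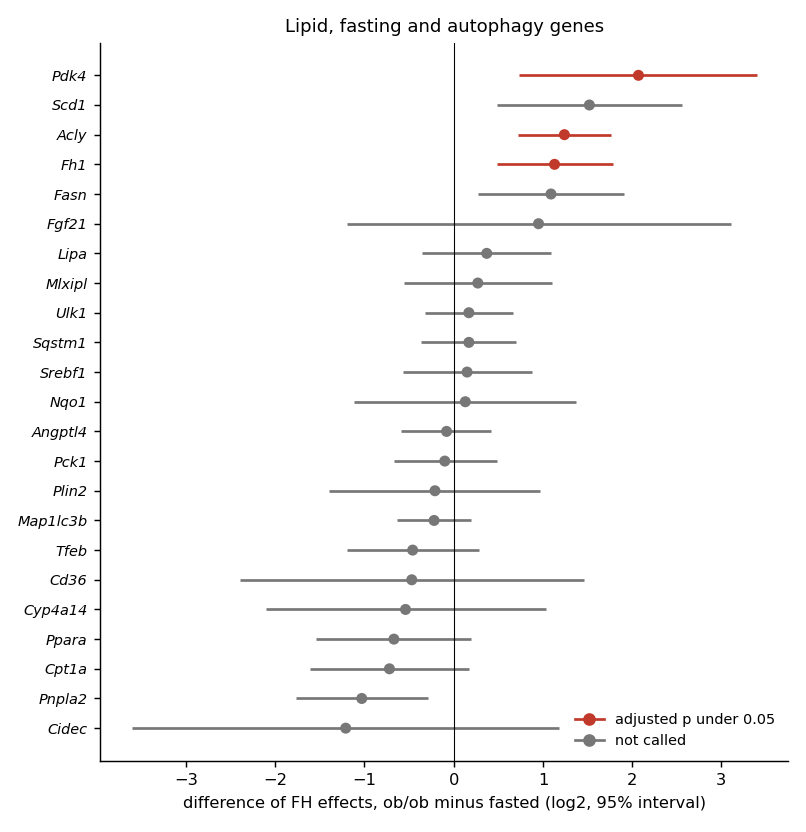
Difference of the FH effects (x axis, log2) with its 95% interval for 23 genes of FH, lipid metabolism, fasting and autophagy. The differences that passed, those of Fh1, Acly and Pdk4, are in red (adjusted p under 0.05), and the intervals of Fasn, Scd1 and Pnpla2 also lie on 1 side of 0 but missed the threshold after adjustment.

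Of 30 fatty acid oxidation and ketogenesis genes 25 rose with FH in the fasted and 14 in the ob/ob livers, but the difference passed the test for 1 of them. A negative difference was seen for 28 of the 30, with a median of -0.55 and effects of 1.00 in the fasted and 0.52 in the ob/ob livers. Over all 14447 autosomal genes 6080 had a positive difference, and the median was -0.11. With upper quartile factors the median difference was -0.39 for the list and 0.04 for all genes. On library totals 11 of the 30 rose and 3 fell in the fasted livers, and 4 rose and 8 fell in the ob/ob livers. The median effects were then 0.34 and -0.10, so the list's direction in the ob/ob livers depends on the scaling. Eci2, an isomerase for unsaturated fatty acids, was the called gene. It stood at 272, 195 and 206 CPM in fasted vector and 361, 342 and 380 CPM in fasted FH libraries. Ob/ob vector libraries had 205, 152 and 214 CPM and ob/ob FH libraries 141, 119 and 130 CPM. Both pairs of groups were separate, the difference was -1.24 (SE 0.23, edgeR adjusted p = 0.00683), and on library totals the fasted effect was 0.02, so the reversal was not seen there.

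Without ob/ob vector replicate 2 the count of called negative differences in this list went from 1 to 10 and the median to -0.76. Among them were Cpt1a, the carnitine transferase that admits fatty acids to mitochondria, with -0.72 (edgeR adjusted p = 0.274) in all 12 libraries and -1.03 (edgeR adjusted p = 0.0148) without that library. Hadha, a subunit of the mitochondrial trifunctional protein, went from -0.71 to -0.88.

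PPARα targets had 2 negative and 1 positive calls among 26 genes and a median of -0.70 (-0.61 with the 1 gene that had a group at 0 set at its bound), or 9 negative calls and a median of -0.97 without ob/ob vector replicate 2. Cyp4a31, a fatty acid omega-hydroxylase, stood at 55.9, 71.9 and 43.5 CPM in fasted vector and 245, 260 and 379 CPM in fasted FH libraries. The ob/ob vector libraries held 6.21, 11.4 and 16.0 CPM and the ob/ob FH libraries 10.6, 11.7 and 8.54 CPM. Its difference was -2.50 (SE 0.41, edgeR adjusted p = 0.0039). The neighbouring Cyp4a32 reversed with -2.10, but its fasted effect on library totals was 0.14 and not called, and shared reads between such close copies make both genes uncertain. Pdk4, the kinase that shuts pyruvate dehydrogenase in fasting, went the other way with 2.07 (SE 0.58), a call lost in 8 of the 12 fits without 1 library. Cyp4a14 (-0.54), Angptl4 (-0.08), Fgf21 (0.95) and Ppara itself (-0.67) were not called.

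None of 23 lipid droplet genes was called with all 12 libraries, while 5 were called negative without ob/ob vector replicate 2, where the list's median moved from -0.26 to -0.60. Pnpla2, the adipose triglyceride lipase ATGL, stood at 63.2, 116 and 62.8 CPM in fasted vector and 230, 211 and 293 CPM in fasted FH libraries. It stood at 49.5, 39.2 and 58.2 CPM in ob/ob vector and 65.1, 75.5 and 78.5 CPM in ob/ob FH libraries. Both pairs of groups were separate, and its difference was -1.03 with an interval from -1.77 to -0.29 (edgeR adjusted p = 0.0646), and -1.16 without ob/ob vector replicate 2 (edgeR adjusted p = 0.0244). The droplet coats Plin2 (-0.21) and Cidec (-1.21, interval -3.61 to 1.18) were not called.

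Of 20 bile acid and sterol handling genes 2 had called differences, both negative. Abcg5 and Abcg8 encode the paired transporter subunits that export cholesterol into bile, and they lie head to head. Abcg8 stood at 57, 62.5 and 66.7 CPM in fasted vector and 143, 202 and 178 CPM in fasted FH libraries. Its ob/ob levels were 61.8, 78.1 and 68.5 CPM with the vector and 84.2, 71.4 and 75.0 CPM with FH. Only the fasted groups were separate, and the difference was -1.34 (SE 0.20, edgeR adjusted p = 0.00287). Abcg5 stood at 60.4, 54.3 and 66.9 CPM against 109, 145 and 136 CPM in the fasted livers, and at 81.7, 64.8 and 69.8 CPM against 70.5, 59.5 and 66.4 CPM in the ob/ob livers. Its difference was -1.24 (SE 0.20, edgeR adjusted p = 0.00346). Both calls were kept in all 12 fits without 1 library. On library totals Abcg8 and Abcg5 fell in the ob/ob livers (-0.48 and -0.77) and rose in the fasted ones (0.81 and 0.42). The other 18 genes of the list were not called with all 12 libraries.

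The stretch between the 2 divergent start sites is shown because 1 short region precedes both genes, chr17:84683012-84683120 on the plus strand (RefSeq, GRCm38.p6), with capitals for the motif GATAAG of GATA factors, here on the other strand as CTTATC.
Abcg5-Abcg8: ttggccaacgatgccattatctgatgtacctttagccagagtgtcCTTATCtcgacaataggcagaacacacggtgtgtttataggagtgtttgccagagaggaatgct
GATAAG was present on either strand in the part of the 300-base promoter before the start for 7.6% of all 27025 genes. Both genes overlap others on the opposite strand in the annotation, and since the strand setting was not given in the sources used here, shared reads cannot be told apart.

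Among other sterol genes, Stard4, a cytosolic sterol carrier, rose in the fasted livers only and had a difference of -1.40 (SE 0.30), and on library totals it fell in the ob/ob livers (-0.66). Npc1, which exports cholesterol from lysosomes, stood at 45.0, 65.2 and 55.6 CPM against 165, 168 and 154 CPM in the fasted livers and at 45.3, 47.5 and 57.4 CPM against 77.7, 84.1 and 90.4 CPM in the ob/ob livers. It rose in both models (not in the ob/ob livers on library totals, where Npc1 stood at 0.13), and its difference was -0.81 (SE 0.20, edgeR adjusted p = 0.0274), lost in 8 of the 12 fits without 1 library. Mvd, an enzyme of cholesterol synthesis, had a positive difference of 1.87 (SE 0.53), lost in 9 of these fits. The 23 cholesterol synthesis genes held 1 call of each sign and a median of -0.10, near the -0.11 of all genes.

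Autophagy, by which cells enclose cargo for the lysosome, held 4 called genes of 38, all negative, with a median of -0.25. Over all autosomal genes 3.71% were called negative. Rb1cc1, which encodes the scaffold FIP200 of the initiating kinase complex, stood at 50, 56.4 and 51.7 CPM in fasted vector and 50.2, 49.6 and 44.7 CPM in fasted FH libraries. Levels of 53.8, 52.1 and 56.0 CPM in ob/ob vector and 22.2, 22.8 and 24.2 CPM in ob/ob FH libraries were found. Only the ob/ob groups were separate, the difference was -1.10 (SE 0.15, edgeR adjusted p = 0.00151), and it was called in all 12 fits without 1 library. On library totals Rb1cc1 fell in the fasted livers too (-0.80). Rb1cc1 also overlaps a gene on the opposite strand. Gabarapl1, which coats the autophagosome, had -0.71, the lipid transfer protein Atg2b had -0.80 and the tethering factor Uvrag had -0.60. These 3 rose in the fasted livers (on library totals only Uvrag did, by 0.27), and the calls of their differences were lost in 9 or 10 of the 12 fits without 1 library.

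Ulk1, the kinase that FIP200 scaffolds, ran from 52.7 to 76.8 CPM with the vector and from 59.5 to 74.6 CPM with FH in the fasted livers, and from 66.5 to 71.0 CPM and from 67.5 to 86.1 CPM in the ob/ob livers. Its groups overlapped in both models, and the difference was 0.17 with an interval from -0.32 to 0.66 (edgeR adjusted p = 0.675). Map1lc3b (-0.22), the cargo receptor Sqstm1 (0.17), the lysosomal regulator Tfeb (-0.46) and the acid lipase Lipa (0.37) were not called. Besides Npc1, the other 23 lysosomal genes tested were not called.

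Sex-biased liver genes, which the pulsed male and steady female secretion of growth hormone sets in mice, included several of the largest differences of the named genes. Of 25 male-biased genes 9 were called, all negative, with a median of -2.37, and of 23 female-biased genes 3 were called, all positive. The female-biased list had a median of -0.10, near the -0.11 of all genes, and 10 of its 23 genes had a positive difference. With the 3 genes that had a group at 0 set at their bounds, that median was 0.28. Without ob/ob vector replicate 2 the male-biased list had 6 negative calls and a median of -0.63. Cyp4a12a, a male-biased fatty acid hydroxylase, stood at 90.5, 115 and 81.5 CPM in fasted vector and 270, 404 and 404 CPM in fasted FH libraries. Ob/ob vector libraries had 78.3, 118 and 36.6 CPM and ob/ob FH libraries 8.03, 20.2 and 11.4 CPM. Both pairs of groups were separate, in opposite directions, and the difference was -4.46 (SE 0.54, edgeR adjusted p = 0.0011).

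Cyp2u1 and Cyp2d9, further cytochromes, reversed with -2.96 and -2.23. Neither reversal held throughout: without ob/ob vector replicate 2 the ob/ob effect of Cyp2d9 was -0.27 (edgeR adjusted p = 0.252), and on library totals the fasted effect of Cyp2u1 was 0.70 (edgeR adjusted p = 0.113). Slco1a1, an uptake carrier for organic anions, depended on 1 library for the size of its difference. It stood at 13.5, 626 and 15.6 CPM in ob/ob vector but only 1.17 to 2.33 CPM in ob/ob FH libraries. Its difference was -6.34 with all 12 libraries and -2.43 without ob/ob vector replicate 2, where the call was kept. That call was lost in 7 of the 12 fits without 1 library, each of which left out another library. Clec2h, a lectin gene outside the lists, moved from -6.71 to -4.09 in the same way, at 2.96, 29.5 and 0.680 CPM in the ob/ob vector libraries. Mup20, a major urinary protein that serves as a male scent signal, fell in both models and more in the ob/ob livers, from 2929, 5904 and 1146 CPM to 133, 188 and 94.4 CPM there, with a difference of -3.45 (SE 0.62). Mup21, of the same family of close copies, had -2.97, or -1.77 without ob/ob vector replicate 2, lost in 5 fits.

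On the female-biased side, Sult1e1, the estrogen sulfotransferase, stood at 0.568, 4.07 and 1.66 CPM in fasted vector and 1.20, 0.736 and 1.39 CPM in fasted FH libraries. The ob/ob vector libraries held 2.38, 0 and 1.36 CPM and the ob/ob FH libraries 30.0, 11.2 and 39.4 CPM. Only the ob/ob groups were separate, and the difference was 5.38 (SE 1.12, edgeR adjusted p = 0.0121). Cyp2b10, a phenobarbital-inducible cytochrome, had 3.81, and Cyp2c69, of a family of close copies and outside the lists, had 5.09 with ob/ob FH libraries at 89.9, 10.9 and 8.26 CPM, lost in 9 fits. These calls lie where the sex markers differ, and for none of them can sex and the difference be told apart. Of 425 X-linked genes tested 41 were called (9.65%), beside 8.53% of autosomal genes, and of 48 sex-biased genes 12.

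Clock genes run in daily cycles, with Arntl and Npas2 as activators that peak opposite to Dbp and the Per genes. Of 22 genes 2 had called positive and 3 called negative differences, and 3 and 10 without ob/ob vector replicate 2. Arntl stood at 19.9, 18.1 and 20.9 CPM in fasted vector and 3.75, 1.74 and 2.04 CPM in fasted FH libraries. The ob/ob vector libraries held 4.35, 21.9 and 5.97 CPM and the ob/ob FH libraries 14.2, 10.4 and 4.93 CPM. The fasted groups were far apart, the ob/ob groups overlapped with replicate 2 of the vector highest, and the difference was 2.85 (SE 0.75), or 3.91 without that library, lost in 8 of the 12 fits without 1 library. Per3 had -3.51 and -4.02 with and without it (lost in 9 fits), Wee1, a clock-driven kinase of mitotic entry, had -3.30 and -3.77, and Nr1d2, the repressor REV-ERBβ, had -1.31 and -1.54. Times of collection were not given in the sources used here, so time of day and FH cannot be told apart in either model.

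Other reversed genes came from several functions. Of those that fell in the fasted and rose in the ob/ob livers, Itga9, an integrin subunit, went from -1.29 to 1.06, and Itgal and Itgb2, the chains of the leukocyte integrin LFA-1, went from -1.07 to 1.03 and from -1.0 to 1.22. C1qtnf1, a secreted relative of C1q, went from -1.22 to 1.03 and Plekho2 from -1.27 to 0.92. On library totals none of these 5 passed the test in the ob/ob livers, with effects of 0.31 to 0.61. With the opposite pattern, Gpcpd1, which splits glycerophosphocholine, stood at 197, 439 and 263 CPM against 528, 527 and 823 CPM in the fasted livers and at 85.1, 71.6 and 71.7 CPM against 35.8, 33.9 and 35.8 CPM in the ob/ob livers. Both pairs were separate, and its difference was -2.18 (SE 0.36, edgeR adjusted p = 0.00395). Foxq1, a forkhead transcription factor, and Smad9, a transducer of bone morphogenetic protein signals, had -3.00 and -2.49. On library totals the fasted effects of Gpcpd1 (0.40, edgeR adjusted p = 0.166) and Smad9 (0.34, edgeR adjusted p = 0.44) were not called, so their reversal was not seen there, while Foxq1 reversed on that scale too. Cyp2a5, a coumarin hydroxylase, rose in both models but less in the ob/ob livers (0.72 and not called there on library totals), with a difference of -1.86 (lost in 7 of the 12 fits without 1 library), and Igfbp3, a carrier of insulin-like growth factors, had a positive one of 1.62.

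Of 92 genes of the other cell types and the matrix 49 were called positive, beside 4.82% of all autosomal genes, none was called negative, and 21 reversed with a rise in the ob/ob livers. None of the 7 hepatocyte markers was called, with a median difference of -0.10 and effects of 1.5 and 1.35. With all 12 libraries, pathway lists without any call were amino acid and urea metabolism (27 genes), lipoproteins and fatty acid uptake (27) and lipid droplets (23). In the fit without ob/ob vector replicate 2 these had 1 positive, 1 negative and 5 negative calls. Oxidative phosphorylation held 1 call of 31, Cox5a, a subunit of cytochrome c oxidase, at -0.81 (lost in 6 of the 12 fits without 1 library), and xenobiotic metabolism 1 of 31. The fit without ob/ob vector replicate 2 also moved the calls of several other lists, beside 10.5% of all genes called in it. Positive calls went from 11 to 13 for macrophages, 1 to 3 for lymphocytes, 8 to 9 for stellate cells, 6 to 7 for antigen presentation, 10 to 12 for the cell cycle and 3 to 5 for chaperones. Negative calls went from 0 to 3 for the tricarboxylic acid cycle (1 positive in both), 4 to 5 for autophagy and 1 to 2 for the lysosome. Calls of both signs changed for bile acid and sterol handling (0 positive and 2 negative to 2 and 3), female-biased genes (3 and 0 to 4 and 3), lipogenesis (2 and 0 to 3 and 1), the integrated stress response (1 and 0 to 2 and 1), gluconeogenesis and glycolysis (1 and 1 to 2 and 2) and cholangiocytes (0 and 0 to 1 and 1). Xenobiotic metabolism gained 2 positive calls beside its 1 negative, and its median went from -0.09 to 0.27. Insulin and growth hormone signalling gained 1 negative call beside its 1 positive. Counts for endothelium, matrix, acute phase, cholesterol synthesis, oxidative phosphorylation and neutrophils were equal in both fits. How far the other cells' share of the RNA sets the differences of single genes was not tested.

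**Figure D5:**
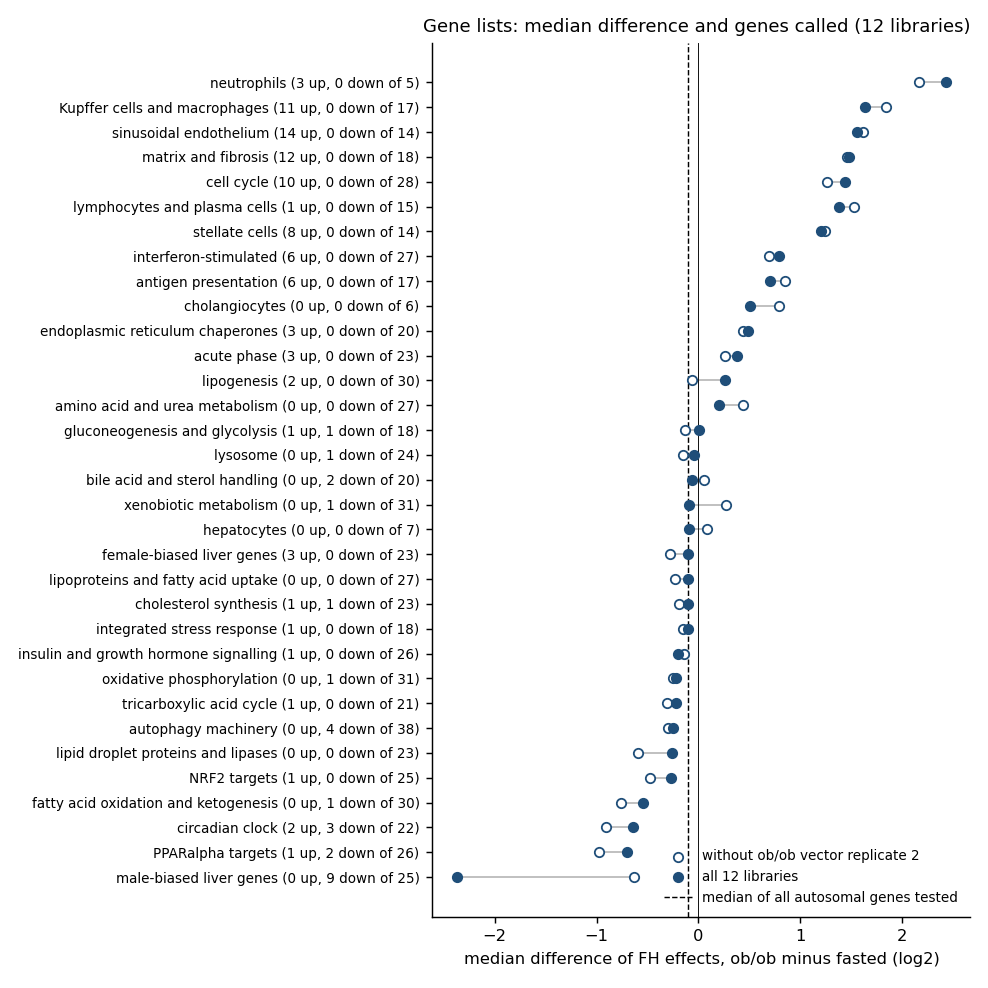
Median difference of each gene list (x axis, log2), filled for all 12 libraries and open without ob/ob vector replicate 2, with the number of genes called up and down of those tested in the row label. The dashed line is the median of all autosomal genes at -0.11. Endothelial, macrophage, stellate, lymphocyte, neutrophil, matrix and cell cycle lists lie above 1 in both fits, and the male-biased list moves from -2.37 to -0.63.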

How the data were processed

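RNA of 12 mouse liver libraries was measured by RNA-seq. The authors deposited 1 table of whole-number counts per gene; the submitters' processing notes name STAR 2.7.11a and the mouse build GRCm39. The counting tool, annotation and strand setting were not given in the sources used here, so opposite-strand and near-identical genes are uncertain; of 88 called named genes 28 overlap another gene on the opposite strand. Of 56441 gene names, 49047 were matched by symbol to GENCODE M21 and, for the rest, 1535 to a RefSeq symbol and 80 to a RefSeq synonym for the chromosome, and 5779 were unmatched.

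Counts were fitted with edgeR 4.0.16 (glmQLFit and glmQLFTest, TMM scaling, filterByExpr with a minimum count of 10 and a minimum total of 15) under R 4.3.3. A single model without covariates held the 4 groups, with 8 residual degrees of freedom. Adjusted p is Benjamini-Hochberg over 15228 genes, called under 0.05. A gene counts as reversed when the difference and both FH effects were called and the effects had opposite signs. Intervals are at 95%. The steps were tested on simulated data. Alternatives were library totals, RLE and upper quartile factors, DESeq2 1.42.0, limma 3.58.1 voom with quality weights, other filters, thinning to equal depth, a replicate block, a stricter threshold and leaving out each library.

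Gene lists and the comparison were chosen with earlier results of these data known. Lists were described by counts and medians, without a test. Named genes are a panel of 25, the 10 largest differences of each sign and the 10 strongest reversals of each kind among called protein-coding genes that averaged 5 CPM or more and were called again without ob/ob vector replicate 2, and up to 4 called members of each list. A few genes chosen by this rule are not reported here. Genes named beyond these are list members chosen after their values were seen. Promoter motifs were searched in RefSeq sequences of GRCm38.p6. Counting noise is small at 12231828 or more counts per library except for genes under about 1 CPM.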

Additional observations from a re-analysis of the deposited data

Results flagged for a closer look

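The FH effect differed between the 2 models, by a test of the difference itself, for 1232 autosomal genes and reversed for 200 of them. In the panel of lipid, fasting and autophagy genes the tested difference passed, among the genes reported here, for Fh1 (1.13), Acly (1.24) and Pdk4 (2.07), all more positive in the ob/ob livers. The difference of Pdk4 had an edgeR adjusted p of 0.0439, close to the threshold.

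A signal was also present outside the autosomal genes, in the sex markers. The ob/ob FH library with the fewest Xist counts held 2242, against at most 24 in any of the other 9 libraries. Of 425 X-linked genes tested 41 were called in the difference (9.65%), 28 positive and 13 negative. That share is near the 8.53% of autosomal genes called. Sex markers and the difference cannot be told apart.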

How the results depend on the processing

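The 1232 calls became 1883 with limma voom and quality weights, which gave ob/ob vector replicate 2 the lowest weight (0.301), 1777 without a filter (1053 positive) and 1641 with DESeq2. The 536 negative calls became 346 on library totals, 322 after thinning to equal depth, 236 with upper quartile factors and 954 with voom. The 200 reversed genes became 91 on library totals and 55 at an adjusted p under 0.01 in all 3 tests. Leaving out 1 library gave 553 (ob/ob FH replicate 2) to 1585 calls (ob/ob vector replicate 2), 359 to 840 positive, 180 (ob/ob FH replicate 3) to 745 negative and 111 to 237 reversed. Totals fell by over 1.5 times without ob/ob FH replicate 3 (622), fasted FH replicate 2 (673), fasted vector replicate 3 (745) or ob/ob vector replicate 1 (767). Negative calls also fell that far without fasted FH replicate 1 (341), fasted vector replicate 1 (321) or ob/ob FH replicate 1 (253). With the replicate number as a block, 1091 genes were called, 639 positive and 452 negative, and 188 reversed; libraries of the same number did not deviate together (correlations of -0.147 to 0.156), so the numbers were not treated as pairs. Of the named genes no difference changed sign while called: 1598 of 1847 refits of called genes kept the call and 249 lost it, and 22 of 441 refits of genes not called gained one. Genes under about 1 CPM, such as Ccnb1, rest on few counts.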
